A study of Homo sapiens with 46 samples.

Results

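The comparison described here is that of DLD-1 cells in which Lamin B2 was targeted for degradation for 16 h with the same cells at 0 h. The members are the 8 of 46 RNA-seq libraries whose labels give the genotype LB2-AID and 0 or 16 h of auxin, 4 libraries in each group. DLD-1 is an established human colorectal adenocarcinoma line. In LB2-AID cells the endogenous Lamin B2 carries an auxin-inducible degron, a tag through which the plant hormone auxin sends the protein to the proteasome. The 16 h group received 1 mM auxin, dissolved in DMSO, and a DMSO treatment of the 0 h cells is not stated in the labels. Both groups carry the tag, so the change with time holds the response to auxin itself as well as that to degradation. The study also treated untagged parental (WT) cells and lines tagged on Lamin A/C (LAC-AID) or Lamin B1 (LB1-AID) for 0, 16 and 96 h, and these are used here only for contrast. Each replicate is a culture well. Nothing in the labels says that wells came from separate cultures, so the p-values measure a spread between wells, which may be technical. In the main fit that spread was estimated for each gene over all 46 libraries, not over these 8 alone. The labels do not say how many clones an AID line represents, and Lamin B2 protein was not measured in these files.

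Lamin B2, encoded by LMNB2, is 1 of the B-type lamins, intermediate filament proteins that form a meshwork under the inner nuclear membrane together with Lamin B1 and with Lamins A and C, the products of LMNA. B-type lamins stay attached to the membrane by a farnesyl group, and the lamina anchors heterochromatin at the nuclear edge. Auxin is an indole, a class of compounds that includes ligands of the aryl hydrocarbon receptor, a ligand-activated transcription factor that induces cytochrome P450 genes of the CYP1 family.

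Depth was uneven. The 4 libraries at 0 h held 1894447, 16508928, 10167202 and 3724709 counts, and the 4 at 16 h held 29496614, 17888416, 479446 and 19314604. Replicate 1 at 0 h and replicate 3 at 16 h, the least deep library of each group, stood apart from the rest. Over 8568 well-expressed genes, their Pearson correlation of log2 CPM (counts scaled to a library of 1000000 counts) with any of the other 7 libraries was at most 0.85 and 0.86, while the other 6 correlated at 0.944 or more with each other. Of the genes tested, 4266 and 7871 had no count in these libraries, against 119 to 1647 in the other 6. In replicate 3 at 16 h, 8.48% of counts came from mitochondrial genes, and a gene without a count there may have stood as high as 6.26 CPM, the equivalent of 3 counts. That floor covers counting error only. In 7 library measures, depth and mitochondrial share among them, no difference between the groups reached an adjusted p under 0.05. The two-sided exact permutation tests gave p from 0.286 to 1, all 1 after Benjamini-Hochberg adjustment, with a smallest possible p of 0.0286. With 4 libraries in each group, a single measure at that smallest p could not have passed after adjustment. These tests therefore do not show that the groups were alike. Markers of colorectal epithelium summed to 7325 to 11972 CPM at 0 h and 7527 to 10282 at 16 h, and 15 of 18 were above 1 CPM. Markers of fibroblasts summed to at most 6.10 CPM, those of leukocytes to at most 7.36, of endothelium to at most 13.8 and of neural cells to at most 31.0.

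**Figure D1:**
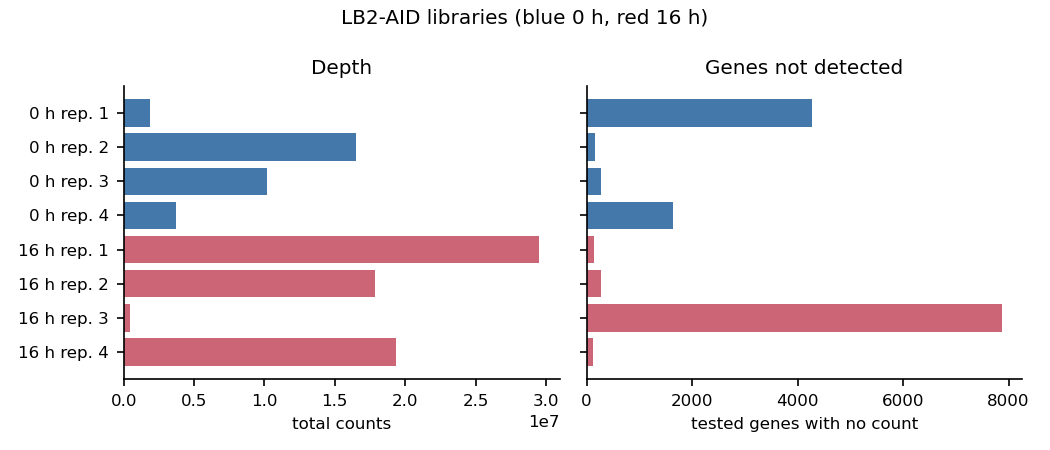
Depth of the 8 LB2-AID libraries (left, total counts) and the number of tested genes with no count (right), 1 bar per library, blue for 0 h and red for 16 h. Replicate 3 at 16 h held 479446 counts and lacked 7871 of the tested genes, and replicate 1 at 0 h held 1894447 counts and lacked 4266.

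The lamin transcripts did not test the labels, since the degron acts on protein, but they describe the targeted gene. LMNB2 (ENSG00000176619.13, chr19:2427638-2456959, minus strand, GRCh38) stood at 261, 108.8, 99.9 and 100.4 CPM at 0 h and at 201, 142.4, 87.0 and 158.6 CPM at 16 h. The groups overlapped, since replicate 1 at 0 h was the highest and replicate 3 at 16 h the lowest of the 8. The log2 fold change was 0.14 ± 0.21 (standard error, SE, of the fit) with an edgeR adjusted p of 0.785. Without these 2 libraries it was 0.65 with an edgeR adjusted p of 0.0224, so the LMNB2 value rests on them. The mean LMNB2 level of parental cells was 283 ± 32.5 CPM (SD, n = 4) before auxin and 396 ± 24.3 CPM (SD, n = 4) at 16 h. LMNB1, encoding Lamin B1, changed by 0.20 ± 0.15 and LMNA by -0.36 ± 0.26, with edgeR adjusted p of 0.527 and 0.497. LMNB1 also rested on the libraries that stood apart, and without both it was called, at 0.49 (edgeR adjusted p 0.0149). It was called at 0.46 without replicate 1 at 0 h alone (0.0462), at 0.52 without libraries under 5000000 counts (0.0148) and at 0.55 with voom (0.000635). LMNA was at 1547 CPM in replicate 1 at 0 h and at 485 to 512 in the other 3 libraries of that group. Of the 8 lamin genes and lamin processing enzymes tested, 0 were called, or 2 without both libraries that stood apart, with a median log2 change of 0.15 against -0.02 over all 21484 genes tested.

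At an adjusted p under 0.05, 388 genes were called (edgeR), which is 1.81% of the genes tested. Of these, 307 rose (1.43% of tested genes) and 81 fell (0.377%). These shares are the background for every count of list members given below, and no list was tested as a set. In 205 of the 388, the values of the 4 libraries at 0 h and the 4 at 16 h did not overlap, 151 of them higher and 54 lower, while over all tested genes 4.97% separated in this way (2.43% higher, 2.55% lower). The largest changes and smallest p-values named below were drawn from called genes without overlap, so their separation is no further support. A change of at least 2-fold was called in 86 genes, 42 higher and 44 lower. In this fit the genes called higher and those called lower differed in type, level and span. They were not matched for level, on which the power to call a small change depends. Those that rose were 95.1% protein-coding, had a median level of 55.6 CPM and spanned a median of 49.85 kb of the genome. Those that fell were 56.8% protein-coding, with medians of 7.51 CPM and 18.5 kb. Genes not called were 63.5% protein-coding, with medians of 5.33 CPM and 17.75 kb, nearer to the genes that fell. The median GC content of their exons was 43.6% for genes that rose, 51.4% for genes that fell and 48.1% for genes not called. Over 10911 genes of at least 5 CPM, the log2 change and GC content had a Spearman correlation of -0.44 in LB2-AID and -0.02 in parental cells, across genes, which are not independent replicates. In the third of these genes with the least GC, 3.95% rose, against 0.798% in the third with the most. After removal of the trend with GC and length, 668 genes were called, 303 of them among the 388. Weighted by counts, GC content was 51.1% in replicate 1 at 0 h, which stood apart, and 47.3% to 48.8% in the other LB2-AID libraries compared. It was 48.0% to 48.8% in the parental libraries at 0 and 16 h. The part of GC content, or of that 1 library, in these changes was not tested.

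These counts rested on which libraries entered the fit and on scaling. In the fit used throughout, the spread of each gene was estimated over all 12 groups. In the fit to the 8 libraries alone it came only from the 0 h and 16 h groups of LB2-AID, which hold the libraries that stood apart. When edgeR was fitted to the 8 libraries alone, in place of all 46, 4 genes were called, CYP1A1, IL33, RGL1 and KRT81, while 1089 had an unadjusted p under 0.05. These 4 were also called in all 18 alternatives, and 47 genes, these 4 included, in all but that fit. The share of calls that rose was 79.1% with TMM scaling. Under RLE scaling it was 60.0%, and scaling by library size alone gave 55.7%, while the median of all genes moved from -0.02 to -0.11. Once the trend with GC and length had been taken out the share was 55.2%, and DESeq2 gave 52.0%. In both of these the number of genes that rose was not smaller, at 369 and 308, and it was the number that fell that was larger, at 299 and 284. Without replicate 1 at 0 h and replicate 3 at 16 h together, 732 genes were called (545 higher, 187 lower), among them 312 of the 388. Leaving out 1 library at a time gave 321, 756, 163 and 106 calls without replicates 1 to 4 at 0 h, and 92, 116, 745 and 371 without replicates 1 to 4 at 16 h. The sign of every one of the 388 that could be fitted was the same in each of these settings. The settings share most of their libraries with the fit that chose the 388, so the kept sign is no further support.

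**Figure D2:**
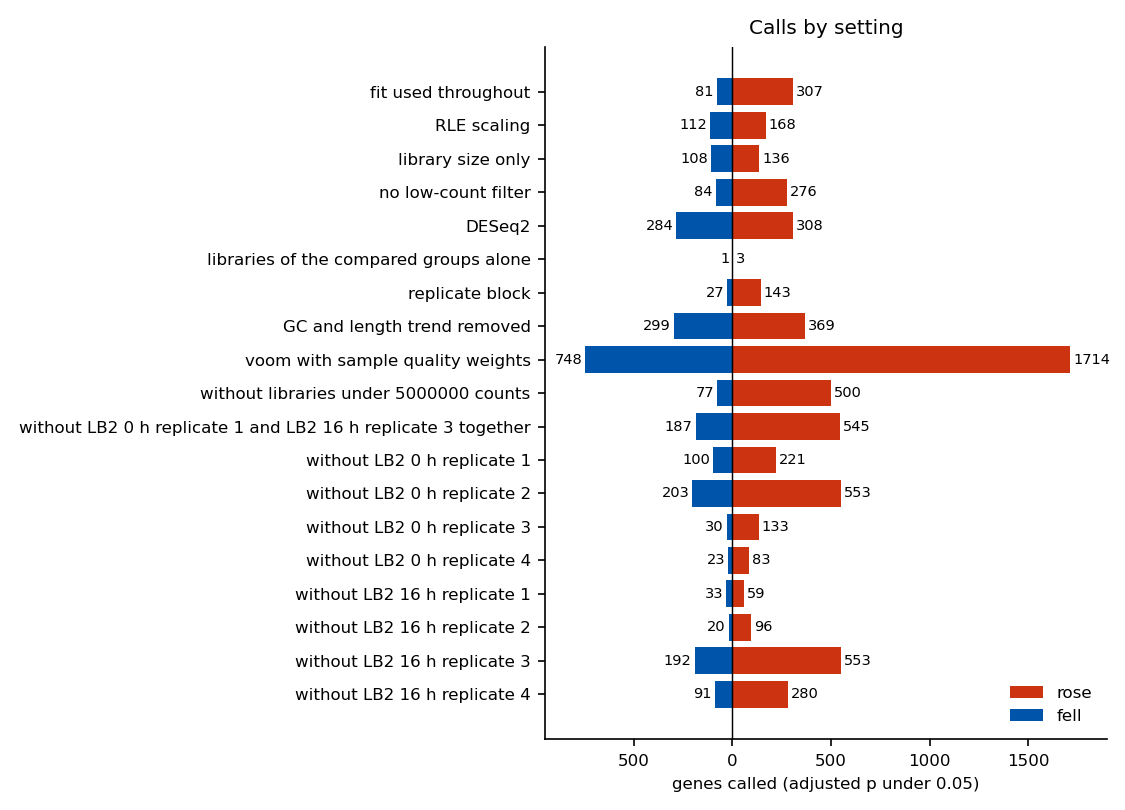
Number of genes called in LB2-AID at 16 h against 0 h (horizontal axis, adjusted p under 0.05) under each setting, red for genes that rose and blue for genes that fell. The fit used throughout called 307 and 81, the fit to the 8 libraries alone 3 and 1, and voom with sample quality weights 1714 and 748.

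The rise of greatest size among the named genes was that of CYP1A1, the cytochrome P450 that is the classical target of the aryl hydrocarbon receptor (ENSG00000140465.15, chr15:74719542-74725536, minus strand). It was at 0, 3.34, 3.13 and 5.10 CPM in the 4 libraries at 0 h and at 34.8, 30.5, 32.6 and 21.3 CPM at 16 h. Every library at 16 h was above every library at 0 h, the shallow replicate 3 included. The log2 fold change was 3.16 ± 0.25 (edgeR adjusted p 1.14e-12), and it was called under all 18 alternatives. CYP1B1, a related P450, had means of 35.8 ± 2.39 CPM at 0 h and 76.7 ± 28.3 at 16 h (SD over 4 libraries), and rose by 1.21 ± 0.14 (edgeR adjusted p 6.85e-08). Its exons overlap those of CYP1B1-AS1 by 678 bases and RMDN2 by 96 on the other strand, and those of RMDN2-AS1 by 69 on the same strand. ALDH3A1, an aldehyde dehydrogenase of the same target group, rose by 0.73 ± 0.15 (edgeR adjusted p 0.00458), with 41.5 to 68.2 CPM at 0 h and 76.0 to 97.9 at 16 h. The other 7 tested members of this list of 10 were not called. They include the feedback genes AHRR, the receptor's repressor, at -0.34 ± 0.31, and TIPARP, an ADP-ribosyltransferase that restrains the receptor, at 0.38 ± 0.18. AHRR shares 5561 exonic bases with the readthrough gene PDCD6-AHRR, so its count is uncertain. It was also low, at 2.04 to 4.99 CPM at 0 h and 0 to 2.54 CPM at 16 h. The 0 was that of the shallow replicate 3, where 3 counts equal 6.26 CPM, so its value is no measured absence of a rise. The list thus had 3 of 10 called higher, against 1.43% of all tested genes, and its median was 0.37.

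The promoters of these genes are shown because the receptor and its partner ARNT bind DNA through a core that is easy to find in a sequence. The 250 bases before the start site were taken from RefSeq (GRCh38.p14), and GCGTG, written CACGC where it lies on the other strand, is in capitals. The table held 8 of the 11 listed genes, and 32.2% of its 35116 promoters hold the core on either strand. The windows are chr15:74725529-74725778 (minus strand) for CYP1A1, which rose, and chr3:156674340-156674589 for TIPARP and chr5:321464-321713 for AHRR (both plus strand), which did not pass the test.
CYP1A1: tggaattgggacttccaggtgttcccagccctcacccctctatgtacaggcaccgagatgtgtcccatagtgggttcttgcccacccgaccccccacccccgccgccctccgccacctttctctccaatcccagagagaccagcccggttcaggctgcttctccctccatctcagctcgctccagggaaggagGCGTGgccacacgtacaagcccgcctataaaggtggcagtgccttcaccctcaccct
TIPARP: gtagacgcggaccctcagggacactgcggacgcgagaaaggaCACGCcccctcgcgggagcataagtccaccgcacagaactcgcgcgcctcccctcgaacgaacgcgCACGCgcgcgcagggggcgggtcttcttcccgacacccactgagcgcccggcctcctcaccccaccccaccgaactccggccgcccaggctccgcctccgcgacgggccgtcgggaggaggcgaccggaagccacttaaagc
AHRR: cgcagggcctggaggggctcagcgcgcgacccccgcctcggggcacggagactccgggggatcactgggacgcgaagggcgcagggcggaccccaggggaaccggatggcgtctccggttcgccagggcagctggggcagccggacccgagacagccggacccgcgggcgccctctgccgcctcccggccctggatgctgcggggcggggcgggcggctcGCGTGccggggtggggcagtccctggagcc
CYP1A1 holds 1 core, 57 bases before the start site. TIPARP holds 2, at 208 and 142 bases, and AHRR 1, at 30 bases. RefSeq gives other start sites for some of these genes, and the windows shown are those of 1 start site each. The other window of AHRR holds 2 cores and the other 2 of TIPARP hold 0, as do the windows of NQO1, AHR and ARNT, which were not called, and of CYP1A2, which did not pass the filter on low counts. UGT1A6 holds 1 core in 1 of its windows and 0 in the other. The core was thus present in some windows of genes that were not called and absent from others. A match is a description of the letters in this window and not a binding site.

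IL33, an epithelial alarmin of the interleukin-1 family, rose next in size (ENSG00000137033.12, chr9:6215786-6257983, plus strand). It stood at 4.44, 4.95, 4.23 and 5.86 CPM at 0 h and at 21.4, 17.6, 15.2 and 27.9 CPM at 16 h. The lowest library at 16 h was above the highest at 0 h, and the log2 fold change was 2.16 ± 0.29 (edgeR adjusted p 2.41e-06). CXCL5, a neutrophil-attracting chemokine, rose by 0.84 ± 0.14, from 345 ± 14.8 to 621 ± 77.8 CPM (edgeR adjusted p 0.000234). The other 18 of 20 epithelial cytokines and chemokines tested were not called, and the median of the list was 0.06.

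RGL1, an exchange factor for the small GTPase Ral, was at 21.1, 27.9, 26.5 and 18.6 CPM at 0 h (ENSG00000143344.16, chr1:183636085-183928532, plus strand). At 16 h it was at 63.9, 60.7, 82.7 and 60.1 CPM, so the groups lay far apart. It rose by 1.41 ± 0.14 (edgeR adjusted p 2.34e-09). CADM1, a cell adhesion molecule of the immunoglobulin superfamily, was at 2.22, 7.05, 4.14 and 3.06 CPM at 0 h and at 19.2, 15.9, 30.5 and 12.2 CPM at 16 h, a rise of 1.79 ± 0.23 (edgeR adjusted p 8.93e-07). Its highest value was that of the shallow replicate 3. ITGB8, the integrin subunit that activates TGF-beta, was the member of the adhesion list of 34 that was called (1.01 ± 0.17, edgeR adjusted p 0.000346). Members of that list that fell numbered 0 here, 1 under RLE scaling, 2 under library size scaling and 4 after removal of the GC and length trend. Other named genes with rises of more than 2-fold were CEMIP, which takes part in hyaluronan breakdown (1.33), the drug efflux pump ABCB1 (1.30), ANGPTL4, a lipase inhibitor (1.27), the imprinted noncoding RNA H19 (1.24), INAFM2 (1.34) and PPARA, a fatty acid-sensing nuclear receptor (1.08). Their edgeR adjusted p ran from 8.93e-07 for CEMIP to 0.0125 for H19. Replicate 1 at 16 h decided the calls of INAFM2 and ANGPTL4, whose edgeR adjusted p without it were 0.0979 and 0.0795, and replicate 4 at 16 h that of H19, at 0.0583. INAFM2 was also not called without replicate 3 (0.0611) or replicate 4 (0.0556) at 0 h. In parental cells ABCB1 rose by 1.69, ANGPTL4 by 1.29, H19 by 1.78 and CEMIP by 1.00, each called (edgeR adjusted p at most 0.00207). INAFM2 and PPARA changed there by 0.46 and 0.36 and were not called (edgeR adjusted p 0.236 and 0.2075).

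Genes of intestinal epithelial identity were among those that rose. CDX2, the homeodomain factor that specifies intestinal epithelium, was at 92.6, 66.5, 59.9 and 58.1 CPM at 0 h and at 190.2, 158.9, 126.2 and 135.3 CPM at 16 h. It rose by 1.19 ± 0.13 (edgeR adjusted p 4.33e-08). The groups did not overlap, which the rule that named it required. CDH17, the liver-intestine cadherin, rose by 1.44 ± 0.16 from 34.9 ± 5.90 to 91.3 ± 26.9 CPM (edgeR adjusted p 3.45e-08). KRT20, a keratin of mature enterocytes, was at 31.1, 47.6, 53.8 and 51.0 CPM at 0 h and at 70.4, 88.6, 117.5 and 80.4 CPM at 16 h, a rise of 0.86 ± 0.15 (edgeR adjusted p 0.00068). These 3 of the 17 tested colorectal markers were called, all higher, and the median of the list was 0.24. In bulk RNA a larger share of cells expressing a gene and more RNA per cell cannot be told apart. EPHB2 (0.90 ± 0.20) and LEF1 (0.67 ± 0.13), both targets of WNT signalling in the intestine, were the 2 of 16 WNT feedback genes that rose (edgeR adjusted p 0.00954 and 0.00276). EPHB2 was at 10.9 CPM in replicate 3 at 16 h, below all 4 libraries at 0 h, and its change without replicate 1 at 16 h was 0.55 (edgeR adjusted p 0.266). Without replicate 3 or replicate 4 at 0 h its edgeR adjusted p was 0.0535 and 0.056. In parental cells EPHB2 rose by 1.21 ± 0.19 (edgeR adjusted p 7.7e-05). There 5 of the 16 WNT feedback genes were called higher, and the list median was 0.42, against 0.07 in LB2-AID.

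The clock gene PER2, a repressor in the circadian feedback loop, was at 15.5, 13.2, 12.9 and 17.6 CPM at 0 h and at 43.1, 41.4, 28.3 and 36.1 CPM at 16 h. It rose by 1.44 ± 0.14 (edgeR adjusted p 2.34e-09). CRY2, which acts beside the PER proteins, rose by 0.80 ± 0.15 (edgeR adjusted p 0.00139), and the activator CLOCK by 0.63 ± 0.17 (0.0358), though CLOCK overlapped between the groups. The 14 other clock genes tested, with PER1, PER3, BMAL1 and NR1D1 among them, were not called. Under RLE or library size scaling, 2 of the 17 were called in place of 3. The harvest hour of the wells is not given in the sources used here.

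Of 20 immediate early genes, EGR1 (0.82 ± 0.16), FOS (0.81 ± 0.18) and MYC (0.66 ± 0.12) rose, with edgeR adjusted p of 0.00353, 0.0116 and 0.00102. MYC, which drives growth genes, separated the groups, at 99.2 to 115.8 CPM at 0 h and 143.6 to 178.8 at 16 h, while EGR1 and FOS overlapped. In the retinoid list of 16, RDH10, which makes retinaldehyde, rose by 0.77 ± 0.12 (edgeR adjusted p 4.14e-05). DHRS3, which turns retinaldehyde back to retinol, was called at 1.64 ± 0.44 (edgeR adjusted p 0.0394) but stood at 0 to 4.17 CPM in the 8 libraries. Its edgeR adjusted p was 0.0655 under RLE scaling and 0.066 under scaling by library size alone. It was 0.0659, 0.209 and 0.0851 without replicates 2, 3 and 4 at 0 h, and 0.117, 0.102 and 0.0811 without replicates 1, 2 and 4 at 16 h. GCLM, a subunit of the enzyme that starts glutathione synthesis, was the 1 of 18 NRF2 targets that was called (0.66 ± 0.14, edgeR adjusted p 0.00594). MDM2, the ubiquitin ligase of p53, was the 1 of 19 p53 targets (0.55 ± 0.11, edgeR adjusted p 0.00402), and its exons overlap 3 other genes. Without replicate 4 at 0 h the edgeR adjusted p was 0.0556 for GCLM and 0.0569 for MDM2, and for GCLM it was 0.115 without replicate 1 at 16 h. After removal of the GC and length trend MDM2 changed by 0.36 and was not called (edgeR adjusted p 0.0856), and GCLM by 0.40 (0.0077). Without both libraries that stood apart 2 of the 19 p53 targets rose.

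Among heterochromatin writers and readers, 2 of 26 were called, both higher, with a list median of 0.17. CBX5, the heterochromatin protein HP1 alpha, was at 293.6 to 373 CPM at 0 h and at 809, 595, 343.7 and 550 CPM at 16 h. It rose by 0.81 ± 0.15 (edgeR adjusted p 0.00184), although replicate 3 at 16 h lay within the range of 0 h. Its change without replicate 1 at 16 h was 0.58 (edgeR adjusted p 0.0712). CBX5 was also called higher in parental cells, at 0.70 ± 0.15 (edgeR adjusted p 0.0027). It was called in LAC-AID at 0.60 and in LB1-AID at 0.61 (edgeR adjusted p 0.0298 and 0.0459). The LB2-AID minus parental difference was 0.11 ± 0.22 (edgeR adjusted p 0.989). L3MBTL3, a reader of methylated histones, rose by 0.77 ± 0.21 (edgeR adjusted p 0.0369). Under RLE or library size scaling, 1 of the 26 was called. Of 19 genes of the inner nuclear membrane and 29 nuclear pore subunits, 0 were called, with medians of -0.04 and 0.16. In the first list 3 fell after removal of the GC and length trend and 1 did under RLE or library size scaling, and in the second 2 rose without both libraries that stood apart.

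A few genes of cholesterol and fatty acid synthesis fell. Of 31 tested, 4 fell and 0 rose, while 0.377% of all tested genes fell and 1.43% rose. In this list 6 had a positive value, and the median was -0.19. SCD, the stearoyl-CoA desaturase, was at 701, 734, 563 and 525 CPM at 0 h and at 474.5, 348.7, 267.6 and 283.6 CPM at 16 h, and fell by 0.86 ± 0.15 (edgeR adjusted p 0.000402), with no overlap. SCD was also called in all alternatives but the fit to the 8 libraries alone. SREBF1, which encodes the transcription factor SREBP-1, fell by 0.85 ± 0.24 (edgeR adjusted p 0.0485). INSIG1, which holds that factor's precursor in the endoplasmic reticulum, fell by 0.53 ± 0.14 (0.0394), and FDPS, farnesyl diphosphate synthase, by 0.44 ± 0.12 (0.0426). Without both libraries that stood apart 3 of the 31 fell, while 10 did after removal of the GC and length trend.

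ANKRD1, a target of the YAP coactivator that responds to mechanical load, fell (ENSG00000148677.7, chr10:90912096-90921087, minus strand). It was at 30.5, 33.4, 36.2 and 48.9 CPM at 0 h and at 11.5, 16.6, 21.8 and 11.2 CPM at 16 h, with no overlap. The change was -1.47 ± 0.19 (edgeR adjusted p 1.51e-06). It was the 1 of 20 YAP targets called, with a list median of -0.21 that was 0.13 without the 2 libraries that stood apart. Under library size scaling 3 of the 20 fell, and 4 did after removal of the GC and length trend. In the SRF and actin list of 23, 0 were called, with a median of -0.10.

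KRT81, a hair-type keratin, had the greatest fall among named genes (ENSG00000205426.11, chr12:52285913-52291534, minus strand). It was at 49.9, 21.3, 23.5 and 23.9 CPM at 0 h and at 7.16, 7.44, 15.2 and 6.46 CPM at 16 h. In both groups the library that stood apart was the highest, and the groups still did not overlap. KRT81 fell by 1.94 ± 0.36 (edgeR adjusted p 0.00139), and the call held in all 18 alternatives. KRT81 belongs to a family of closely similar keratin genes, and how reads shared between them were counted is not given in the sources used here. KRT20, above, was the other 1 of 13 cytoplasmic intermediate filament genes called. LAMA5, a laminin chain of the basement membrane, was at 286.7 to 699.7 CPM at 0 h and 177.4 to 258.9 at 16 h, and fell by 1.01 ± 0.22 (edgeR adjusted p 0.00653). RPSAP52, a transcribed pseudogene next to HMGA2, fell by 1.395 ± 0.30 (edgeR adjusted p 0.00716), or 0.0809 without replicate 1 at 16 h.

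A further 8 named falls were of genes with a mean below 32 CPM in both groups, whose calls depended on single libraries. PLAU, the urokinase protease, changed by -1.02, MYH7B by -1.12, the miRNA host MIR29B2CHG by -1.08, the transporter SLC22A18 by -1.08, AGPAT4 by -1.002, PAM16 by -0.98, ATP8A2 by -0.92 and ACCS by -0.91. Their edgeR adjusted p ran from 0.0177 to 0.0459, and the count of the 18 alternatives in which a call was lost ran from 4 for SLC22A18 to 10 for PAM16. With 1 library left out, the largest edgeR adjusted p arose without replicate 2 at 16 h for SLC22A18 (0.108), MYH7B (0.17), MIR29B2CHG (0.198) and ATP8A2 (0.183). It arose without replicate 1 at 16 h for AGPAT4 (0.218), PAM16 (0.24) and ACCS (0.184), and without replicate 4 at 16 h for PLAU (0.0933). PLAU, AGPAT4 and ATP8A2 had no count in the shallow replicate 3. Exons of PLAU overlap C10orf55 by 915 bases and those of PAM16 overlap CORO7-PAM16 by 522.

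NEAT1, the architectural RNA of paraspeckles, was at 461, 478, 639 and 656 CPM at 0 h and at 302.5, 265.1, 293.6 and 456 CPM at 16 h. It fell by 0.75 ± 0.17 (edgeR adjusted p 0.00985), with no overlap. Without replicate 3 or 4 at 0 h, or replicate 1 or 2 at 16 h, its edgeR adjusted p was 0.0528, 0.0719, 0.0584 and 0.0912. NEAT1 changed by -1.31 ± 0.17 in parental cells and -0.96 ± 0.18 in LB1-AID (edgeR adjusted p 1.45e-06 and 0.00187). In LAC-AID it changed by -0.03 ± 0.17 and was not called. LINC-PINT fell by 0.61 ± 0.16 (edgeR adjusted p 0.0399). These were the 2 of 12 abundant nuclear noncoding RNAs called, and the median of the list was -0.39. Without both libraries that stood apart 4 fell and 1 rose. In parental cells 7 of the 12 fell and 0 rose, with a median of -0.73. SMYD3, a methyltransferase spread over a very long gene, fell by 0.56 ± 0.14 (edgeR adjusted p 0.0306), the 1 of 24 very long genes called. Its call was lost without replicate 3 or 4 at 0 h (0.0591 and 0.202) and without replicate 1 or 2 at 16 h (0.152 and 0.119). It was also lost with no filter on low counts (0.295), without libraries under 5000000 counts (0.113), with the replicate block (0.0616) and in the 8 libraries alone (0.705).

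Several large groups had 0 calls. These were the 36 mitotic and 41 DNA replication genes, 35 replication-dependent histone genes, 55 cytosolic ribosomal protein genes, 55 nuclear-encoded respiratory chain genes and 26 genes of glycolysis and hypoxia, with list medians between -0.10 and 0.13. Nor was any of 26 interferon-stimulated genes (median 0.20), 22 ATF4 targets (-0.06) or 14 MAPK feedback genes (0.04) called. Among genes of glycolysis and hypoxia 2 fell under RLE or library size scaling, 4 fell after removal of the GC and length trend and 1 rose without both libraries that stood apart, where 2 MAPK feedback genes also rose. In the mitochondrial genome 0 of 15 genes were called, 2 had a positive value and the median was -0.51. The mitochondrial share of counts was 8.48% in replicate 3 at 16 h and 0.537% to 2.85% in the other 7 libraries.

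**Figure D3:**
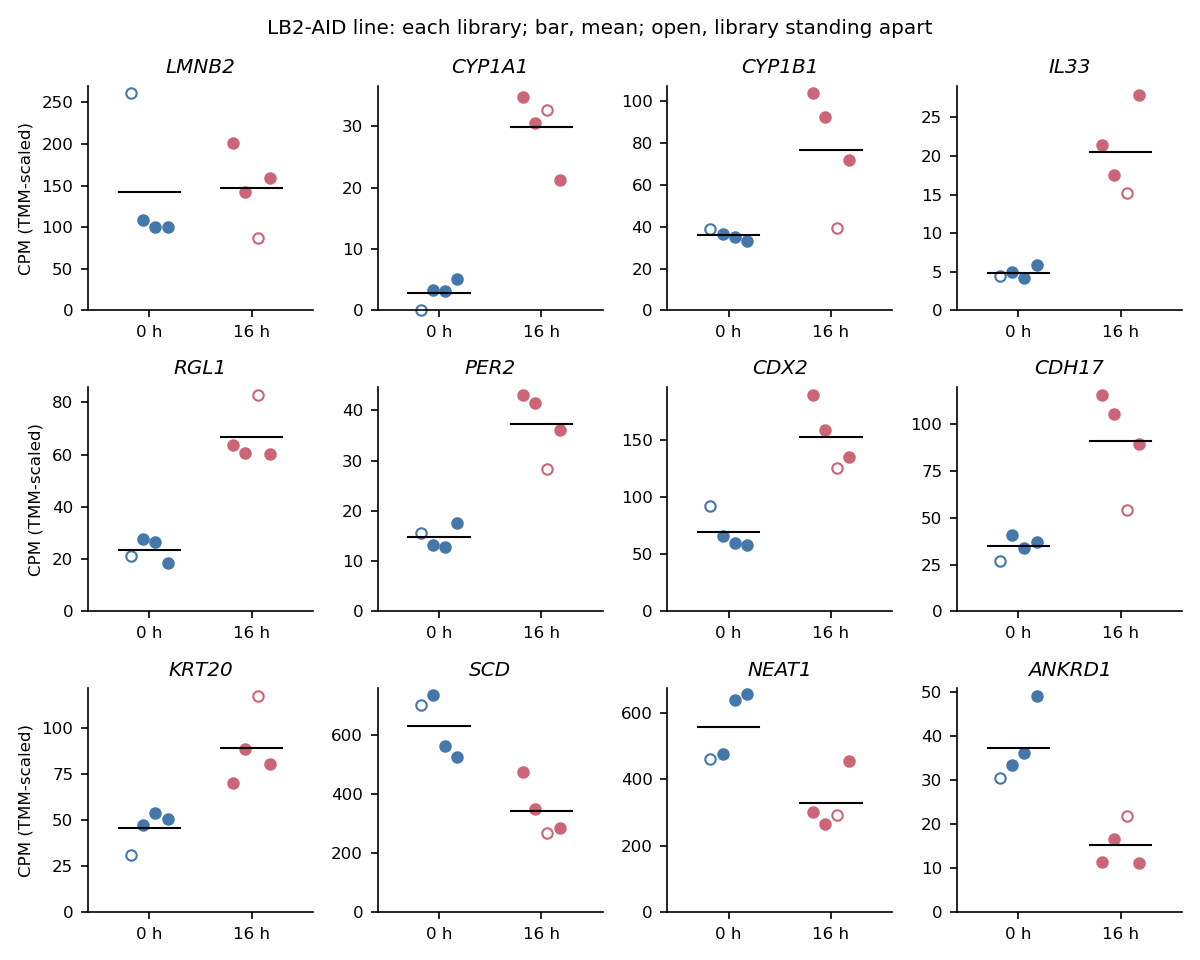
CPM (vertical axis, TMM-scaled, from 0) of 12 genes in each LB2-AID library at 0 h (blue) and 16 h (red), with the mean of each group as a bar and the 2 libraries that stood apart as open circles. CYP1A1, IL33, RGL1, PER2, CDX2, CDH17 and KRT20 were higher in all 4 libraries at 16 h, SCD, NEAT1 and ANKRD1 lower in all 4, and LMNB2 overlapped.

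**Figure D4:**
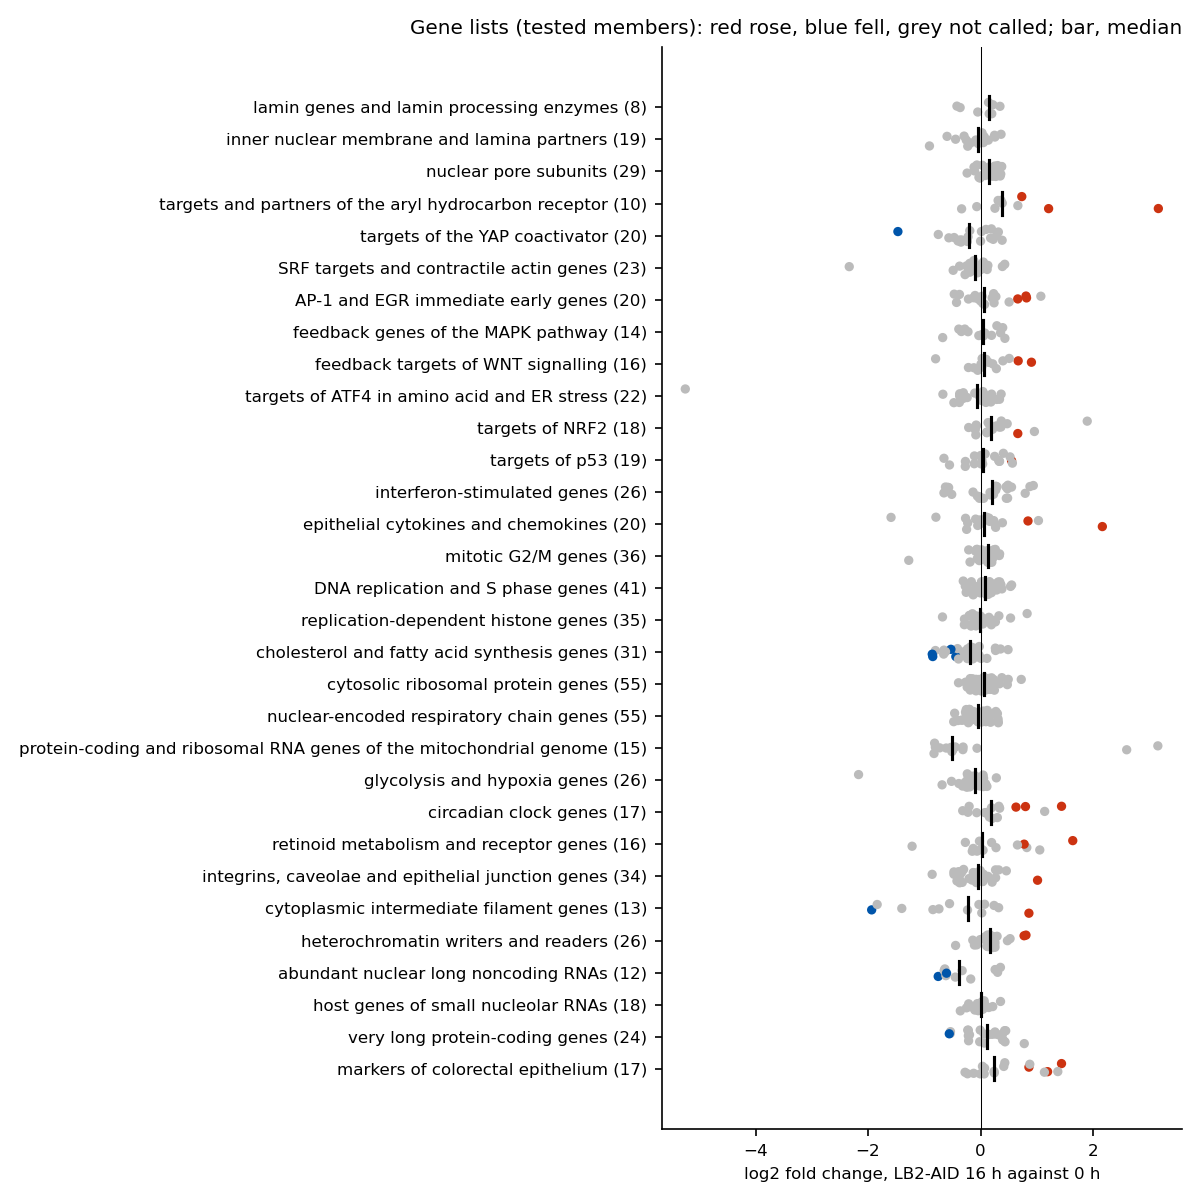
Log2 fold change at 16 h against 0 h (horizontal axis) of every tested member of each gene list, 1 point per gene, red where it rose, blue where it fell and grey where it was not called, with the list median as a bar and the number tested in brackets. Among genes of cholesterol and fatty acid synthesis 4 of 31 fell, and among targets and partners of the aryl hydrocarbon receptor 3 of 10 rose. Over all tested genes 1.43% rose and 0.377% fell.

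Parental cells, which lack a degron, give the response to auxin without a tagged lamin. At 16 h, 1935 genes were called there (9.01% of tested genes). Of the 388 LB2-AID calls, 223 were also parental calls in the same direction, 180 higher and 43 lower (parental cells had 4.23% of tested genes called higher and 4.78% lower), which is 57.5% of the LB2-AID calls and 11.5% of the parental ones. A further 0 were called in opposite directions. The sign was the same in 97.7% of the 388, against 69.99% of all genes tested. The 307 genes that rose in LB2-AID had a median change of 0.63 there and 0.46 in parental cells, and the 81 that fell had medians of -1.04 and -0.80. CYP1A1 rose by 3.24 ± 0.26 in parental cells, from 2.01 ± 0.87 to 18.8 ± 3.25 CPM, CYP1B1 by 1.09, PER2 by 1.07, CDX2 by 1.30 and CDH17 by 1.00. The differences between the responses, LB2-AID minus parental, were -0.08 ± 0.37 for CYP1A1, 0.12 ± 0.19 for CYP1B1, 0.37 ± 0.20 for PER2, -0.11 ± 0.18 for CDX2 and 0.43 ± 0.22 for CDH17, with edgeR adjusted p from 0.90 to 1. These p-values do not show that the lines respond alike. KRT81 fell by 2.26 in parental cells and SCD by 0.52.

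The difference between the LB2-AID and the parental response was called for 1 gene, ANKRD1 (0.00465% of tested genes), while 1195 genes had an unadjusted p under 0.05. In parental cells ANKRD1 was at 116.9, 96.1, 85.9 and 96.7 CPM at 0 h and at 12.7, 13.0, 14.7 and 12.7 CPM at 16 h, a fall of 2.90 ± 0.18. The lines differed at 0 h, where LB2-AID was at 37.2 ± 8.12 CPM and parental cells at 98.9 ± 13.0 (log2 difference -1.41, edgeR adjusted p 9.54e-08), and their 16 h means were 15.3 ± 4.99 and 13.3 ± 0.95 CPM (SD over 4 libraries). The difference of responses was 1.43 ± 0.26 (edgeR adjusted p 0.0232). It was lost in 15 of 26 alternatives, with an edgeR adjusted p of up to 0.46 without replicate 2 at 16 h of LB2-AID. With 1 library left out, it was lost without replicates 1, 2 or 4 of the parental line at either time and without replicates 1, 2 or 3 at 0 h or replicate 3 at 16 h of LB2-AID, with an edgeR adjusted p of 0.0511 to 0.196. RGL1, KRT20 and IL33 had larger changes in LB2-AID that were not called as differences in this fit. RGL1 rose by 0.50 ± 0.13 in parental cells (difference 0.90 ± 0.19, edgeR adjusted p 0.192, but called at 0.88 with DESeq2, adjusted p 0.0199, and at 0.89 after removal of the GC and length trend, 0.00533), where it began at 63.0 ± 6.69 CPM and not at 23.5 ± 4.40 as in LB2-AID. KRT20 was at 68.0 ± 5.62 and 69.6 ± 6.28 CPM in parental cells at 0 and 16 h (difference 0.83 ± 0.21, edgeR adjusted p 0.622). IL33 rose by 0.88 ± 0.25 in parental cells from 12.2 ± 2.39 CPM (difference 1.28 ± 0.38, edgeR adjusted p 0.683). For RGL1, CADM1, IL33 and CDH17, LB2-AID cells at 0 h were below parental cells at 0 h by 1.38, 2.15, 1.35 and 0.91 on the log2 scale, each called in edgeR (adjusted p at most 0.00153), as were 8.21% of tested genes in that comparison. Their 16 h levels in LB2-AID, 66.8, 19.4, 20.5 and 91.3 CPM, were at or below the parental 16 h levels of 89.2, 45.0, 22.6 and 133.7 CPM.

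Against the other degron lines, 16 h of auxin gave 383 calls in LAC-AID (1.78% of tested genes) and 323 in LB1-AID (1.5%). Of the 388 LB2-AID calls, 81 were shared in direction with LAC-AID (20.9% of the LB2-AID and 21.1% of the LAC-AID calls) and 67 with LB1-AID (17.3% and 20.7%), and 0 were opposite. RGL1 was the gene whose response differed from that of LAC-AID (1 gene, 0.00465%), by 1.27 with an edgeR adjusted p of 0.000605, while 1056 genes had an unadjusted p under 0.05. It changed by 0.14 in LAC-AID and 0.19 in LB1-AID, where the difference from LB2-AID was 1.22 ± 0.20 (edgeR adjusted p 0.00374). In the fit to the compared libraries alone these differences were 1.30 and 1.20 but were not called (0.982 and 0.993), and the second was also not called without replicate 1 of LB1-AID at 0 h (0.0508) or at 16 h (0.0671). Against LB1-AID, 9 genes were called, all higher in LB2-AID (0.0419% of tested genes), and 1309 had an unadjusted p under 0.05.

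The 9 were RGL1, CADM1, CEMIP, SBSPON, SIPA1L2, ITPR2, SYTL2, PPARA and CDH13. SIPA1L2 encodes a regulator of the GTPase Rap, ITPR2 a calcium channel of the endoplasmic reticulum and SYTL2 an effector of Rab27 in vesicle transport. ITPR2 rose by 0.78 ± 0.17 in LB2-AID (edgeR adjusted p 0.00794, or 0.121 without replicate 1 at 16 h) while it rose by 0.92 in parental cells and changed by -0.43 in LB1-AID. SYTL2 rose by 0.88 ± 0.17 in LB2-AID (edgeR adjusted p 0.00153), while it changed by 0.07 in parental cells and -0.32 in LB1-AID. For 8 of the 9, the log2 difference lay between 1.105 and 1.58. In parental cells 6 of the 9 were also called, all higher, namely ITPR2, CADM1 (1.06), CEMIP (1.00), SBSPON (0.64), SIPA1L2 (0.58) and RGL1. The ninth, CDH13, a cadherin without a transmembrane domain, did not pass the test in LB2-AID (-0.17 ± 0.24), where it was at 6.65 to 17.6 CPM. Its difference came from LB1-AID, with 10, 0 and 5 counts in the 3 libraries at 0 h and 0 counts in all 4 at 16 h, so the fitted value of 5.45 depends on the prior count and is no measure of size. With 1 library left out, the number of these calls ran from 0 without replicate 1 of LB1-AID at either time to 10 without replicate 2 of LB2-AID at 0 h. It was 14 with voom, 15 with DESeq2, 22 after removal of the GC and length trend and 27 with no filter on low counts.

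**Figure D5:**
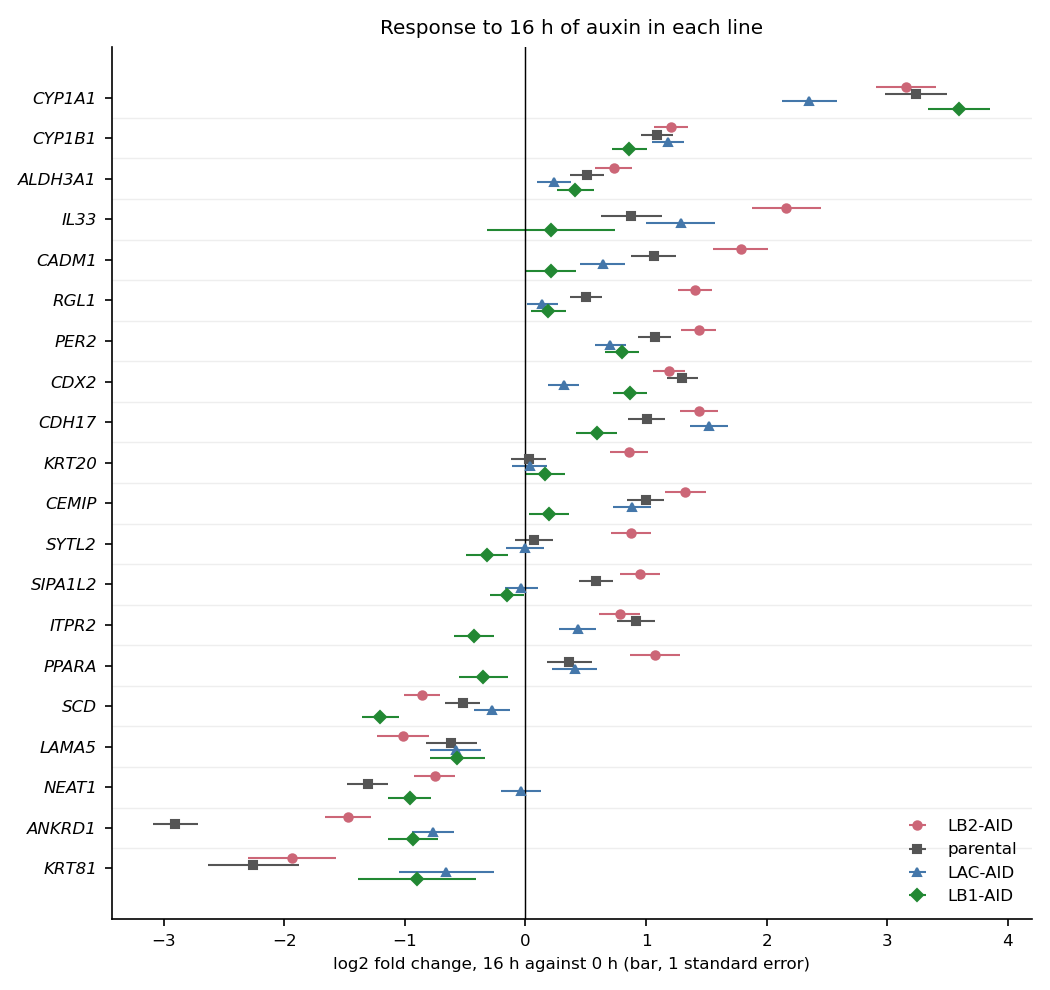
Log2 fold change at 16 h against 0 h (horizontal axis, bar 1 SE) of 20 genes in LB2-AID (circles), parental (squares), LAC-AID (triangles) and LB1-AID (diamonds) cells. CYP1A1 rose in all 4 lines, by 2.35 to 3.60, RGL1 rose by 1.41 in LB2-AID and changed by 0.14 to 0.50 elsewhere, and ANKRD1 fell by 2.90 in parental cells and 1.47 in LB2-AID.

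At 96 h, LB2-AID cells were compared with the same 0 h libraries, so the changes at both times share their controls and are only set side by side. There 762 genes were called (3.55% of tested genes). CYP1A1 changed by 3.16 at 16 h and 1.71 at 96 h, CYP1B1 by 1.21 and 0.71, and CADM1 by 1.79 and -0.09, with 3.62 to 5.44 CPM at 96 h. CXCL5 changed by 0.84 and -0.42, SCD by -0.86 and 0.34, and KRT81 by -1.94 and -0.28. IL33 changed by 2.16 and 2.22, PER2 by 1.44 and 1.66, CDH17 by 1.44 and 1.78, and CEMIP by 1.33 and 1.70. H19 changed by 1.24 and 2.30, DHRS3 by 1.64 and 3.07, and ANKRD1 by -1.47 and -2.48. Thus CADM1, CXCL5, SCD and KRT81 were not called against 0 h in the same direction at 96 h, while IL33, PER2, CDH17, CEMIP, H19, DHRS3 and ANKRD1 were. The difference between the times was not tested.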

How the data were processed

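Counts were analysed for 46 libraries in 12 groups, of which 8 form the comparison. The labels' protocols name an RNeasy column kit for extraction and stranded total RNA libraries depleted of ribosomal RNA (Illumina, Ribo-Zero Plus), read in pairs on a NextSeq2000, so intronic and noncoding RNA are retained. The deposited table holds the authors' gene counts on GRCh38, not normalized, made with featureCounts 1.6.4 in the nf-core/rnaseq 1.4.2 environment, per the file headers. The submitters' processing notes also name STAR 2.7.10a, SAMtools 1.10, deepTools 3.4.5 and DESeq2 1.40.2. The strand setting, the handling of multiply mapped reads and the annotation release are not given in the sources used here, so counts of overlapping genes and near-identical copies are uncertain. The table held 62756 usable genes, and 1 gene broken over 3 lines was left out. Symbols were found for 67.5% of genes, and 92.9% were in GENCODE release 29, which gave gene types and GC content.

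The main test was edgeR's quasi-likelihood test (edgeR 4.0.16, R 4.3.3), in 1 fit of all 46 libraries with 1 coefficient per group, TMM scaling and the filterByExpr filter, which left 21484 genes. P-values are two-sided, adjusted by the Benjamini-Hochberg method over these genes, and called under 0.05. CPM values are TMM-scaled. Differences of responses were contrasts of the same fit. Named were the 3 lamin genes, CYP1A1, CYP1B1, AHRR and TIPARP, the 12 largest rises, the 12 largest falls and the 10 smallest p-values among called genes with a symbol, at least 5 CPM and no overlap between groups, genes called in the 8 libraries alone or in a difference of responses, and the called member of each list with the largest rise and fall. Other called members of a list are named beside its count, after their values were seen. Some genes are not reported here and were left out of the lists. The members, lists and rules were chosen with earlier results of these data known. Replicate numbers were not used as pairs. Alternatives tried were no filter, scaling by RLE or by library size, DESeq2 1.42.0, voom with sample quality weights (limma 3.58.1), the compared groups alone, the replicate block, removal of the GC and length trend, leaving out libraries under 5000000 counts and leaving out each library in turn. Leaving out both libraries that stood apart was added after seeing the data. The analysis was tested on simulated data, drawn with 1 mean per gene in all groups apart from the changes set. These kept the depths but held neither the GC trend nor the other departures of the libraries that stood apart. The effect of those on the calls was therefore not tested by them. Promoters are RefSeq's, on GRCh38.p14.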

Additional observations from a re-analysis of the deposited data

Results flagged for a closer look

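For the named genes, each group of 4 LB2-AID libraries was searched for a library far from the other 3, by the gap to its nearest neighbour as a share of the group's range. Chance flags about 1 in 20 groups, and 7 of 96 were found, or 7.29%. All 7 lay in replicate 1 at 0 h or replicate 3 at 16 h, the 2 libraries that stood apart. Replicate 1 at 0 h was far above the other 3 for LMNA (1547 CPM), LMNB2 (261 CPM), KRT81 (49.9 CPM) and EGR1 (181 CPM). Replicate 3 at 16 h was far above for RGL1 (82.7 CPM) and KRT81 (15.2 CPM) and far below for TIPARP (37.0 CPM).

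A difference between the LB2-AID response and that of another line was called by the edgeR test of that difference in 11 cases. ANKRD1 differed from the parental response by 1.43 on the log2 scale. RGL1 differed from the LAC-AID response by 1.27 and from the LB1-AID response by 1.22. The other differences from LB1-AID were 1.58 for CADM1, 1.13 for CEMIP, 1.13 for SBSPON, 1.105 for SIPA1L2, 1.21 for ITPR2, 1.19 for SYTL2, 1.43 for PPARA and 5.45 for CDH13, the last resting on LB1-AID libraries without a count.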

How the results depend on the processing

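Counts of calls moved by over 1.5 times in many settings, in both directions where libraries were left out, and the cause was not tested. Genes that rose numbered 168 with RLE scaling, 136 with library size only (244 called), 500 without libraries under 5000000 counts and 1714 with voom (2462 called, 748 lower, 538 past 2-fold). DESeq2 called 592 genes, 284 lower and 165 past 2-fold. With the GC and length trend removed 668 were called, 299 lower. Without both libraries that stood apart 732 were called, 545 higher, 187 lower and 140 past 2-fold. The 8 libraries alone gave 4, with 3 higher, 1 lower and 4 past 2-fold. Leaving out 1 library gave 92 to 756 calls, 59 to 553 higher, 20 to 203 lower and 29 to 210 past 2-fold. For differences of responses, the count was 0 with RLE scaling, 6 unfiltered, 2 with DESeq2, 11 with the GC trend removed, 2 with voom and 0 without the 2 libraries against parental cells (0 to 1 with 1 library left out). Against LAC-AID it was 12 unfiltered, 7 with DESeq2, 21 with the GC trend removed, 76 with voom, 5 without libraries under 5000000 counts and 23 without the 2 libraries (1 to 3 with 1 left out). Against LB1-AID it was 27 unfiltered, 15 with DESeq2, 22 with the GC trend removed and 14 with voom (0 to 10 with 1 left out). In the compared groups alone all 3 counts were 0, with 621, 415 and 632 genes at an unadjusted p under 0.05.

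Same-numbered LB2-AID libraries at 0 and 16 h had correlations of their deviations of -0.06, 0.47, -0.20 and 0.32 for replicates 1 to 4. The negative values are those of the pairs that hold a library that stood apart. Replicates 2 and 4 at 0 h correlated best with their own number, but not every library did. Whether the numbers mark pairs was thus not settled. With the replicate block, 170 genes were called, 143 higher, 27 lower and 37 past 2-fold, and the differences gave 0 calls against parental cells, 2 against LAC-AID and 1 against LB1-AID.

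A change of sign was seen only for values that were not called. LMNA changed by 0.058 without libraries under 5000000 counts, by 0.013 without the 2 libraries, and by -0.53 to 0.20 with 1 library left out. With 1 library left out, LMNB2 changed by -0.041 to 0.55 and CDH13 by -0.33 to 0.020. The LB2-AID minus parental difference of CYP1A1 was 0.0070 with the GC trend removed and -0.28 to 0.11 with 1 library left out, that of CYP1B1 -0.096 to 0.19 and that of TIPARP -0.23 to 0.074. For CDX2 it was 0.072 with the GC trend removed, 0.053 with voom, 0.11 without libraries under 5000000 counts and 0.093 without the 2 libraries. Depth limits genes near 6.26 CPM in replicate 3 at 16 h.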

Other observations

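Several called genes outside the lists are given here, chosen after their values were seen. BMI1, a Polycomb protein of the complex that ubiquitinates histone H2A, was at 213, 273, 250.4 and 240.5 CPM at 0 h in LB2-AID and at 537, 511, 376 and 486 CPM at 16 h. It rose by 0.98 ± 0.14 (edgeR adjusted p 9.36e-06), and the difference from the parental response was 0.66 (edgeR adjusted p 0.653). SMCHD1, which takes part in silencing of the inactive X chromosome, rose by 0.47 ± 0.13 and the deacetylase SIRT1 by 0.63 ± 0.17 (edgeR adjusted p 0.0405 and 0.0461). FKBP5, a target of the glucocorticoid receptor, rose by 0.78 ± 0.16, and NRIP1, a corepressor of nuclear receptors, by 0.90 ± 0.17 (edgeR adjusted p 0.00353 and 0.00191), and both were also called higher in parental cells. Among matrix genes, NPNT rose by 0.95 ± 0.20 and HAS3, a hyaluronan synthase, by 0.92 ± 0.22, with edgeR adjusted p of 0.00641 and 0.0192. AGRN, the basement membrane proteoglycan agrin, was called at -1.14 ± 0.31 (edgeR adjusted p 0.041), but it was at 1548 CPM in replicate 1 at 0 h and 411 to 458 in the other 3, and the groups overlapped.

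By chromosome, the median log2 change was lowest on chromosomes 16 (-0.14), 22 (-0.13) and 19 (-0.13) and highest on chromosome 4 (0.06). Of the tested genes, 2.61% rose on chromosome 4 and 0.399% on chromosome 19. The part of GC content in this order was not tested.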
